A study of Mus musculus with 12 samples.

Results

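The 6 genes of the miR-34 and miR-449 microRNAs (Mir34a, Mir34b, Mir34c, Mir449a, Mir449b and Mir449c) were followed through meiotic prophase I in the mouse, out of 2202 annotated microRNA genes. They were taken by name from the GENCODE M21 annotation of mm10, and every dREG peak with its nearest edge under 10000 bp from one of them was collected, together with the peaks of genes that span them. Nascent transcription had been measured by leChRO-seq, a run-on assay in which engaged RNA polymerase incorporates biotin-labelled nucleotides on isolated chromatin, in wild-type (WT) spermatocytes enriched by STAPUT sedimentation for leptonema/zygonema, pachynema or diplonema. Each substage had 4 libraries, 12 in all, and no treatment is named for any of them. The libraries of a substage had been merged before peaks were called, so each substage has 1 peak list, with no spread between replicates and no test between substages. Under the rule, 9 of 71107 peaks in leptonema/zygonema, 13 of 68352 in pachynema and 10 of 38603 in diplonema lay at the 6 genes. The peak lists hold no read counts, so the read depth behind a call is unknown here.

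The miR-34 and miR-449 microRNAs form one family, since their 5p arms carry the same seed, the stretch of bases that pairs with a target messenger RNA. In mammals they are known from testis, where they are abundant in late spermatocytes and spermatids, and from multiciliated epithelia such as airway and oviduct, and miR-34a is known as a target of p53. A microRNA is cut from a longer primary transcript that RNA polymerase II makes, so its transcription start can lie far from the hairpin. dREG recognises the divergent pattern of nascent RNA that marks active promoters and enhancers, together called transcriptional regulatory elements (TREs). A dREG peak has a position, a centre and a score but no strand. Scores are not scaled between substages, so each is given here beside its percentile, the share of peaks in the same list with a lower score.

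The mature sequences are shown because the shared seed is what joins genes at 3 separate places in the genome. Of the 6 genes, 5 had entries in the RefSeq table for GRCm38.p6, and all 5 hairpins had the same position there as in GENCODE. Mir449b and the 5p arm of miR-34c were not looked at, having no entry. Capitals mark the seed, bases 2 to 8, written 5′ to 3′.
miR-34a-5p: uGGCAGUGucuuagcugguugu
miR-34b-5p: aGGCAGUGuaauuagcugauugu
miR-449a-5p: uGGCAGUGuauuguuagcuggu
miR-449c-5p: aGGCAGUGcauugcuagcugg
All 4 of these 5p arms carried the seed GGCAGUG, and no other mature microRNA of the 1738 in the table did, which says nothing of the arms without an entry. Beyond the seed they differed: position by position, miR-449a-5p and miR-449c-5p had the same base at 18 of 21 positions, miR-34a-5p and miR-449a-5p at 15 of 22, and miR-34b-5p and miR-449a-5p at 10 of 22. The 3p arms did not share 1 seed over the family. Those of miR-34b and miR-34c had the seed AUCACUA in common, and miR-449c-3p is shown because its first bases fall on a motif match described with its peak.
miR-34b-3p: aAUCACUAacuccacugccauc
miR-34c-3p: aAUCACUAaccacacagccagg
miR-449c-3p: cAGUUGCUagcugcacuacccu

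The genes fell into 3 loci, which differed in whether and when they were called. The 2 genes of the miR-34b/c locus and the 3 of the miR-449 locus had peaks under 10000 bp in all 3 substages, and Mir34a had none in any. Thus 5 of 6 genes were called in every substage, where 38.9% of all microRNA genes were called in leptonema/zygonema, 39.5% in pachynema, 29.7% in diplonema and 26.7% in every list. The genes of a locus share their peaks, so these are 2 of 3 loci. With neighbouring microRNA genes under 10000 bp apart joined into 1802 loci, 41%, 41.5% and 30.6% of the loci were called in the same order of substages. The outermost TRE inside the limit of 10000 bp, at Gpx8, lay 8267 bp from Mir449a, and the first outside, near a start of Btg4, lay 10546 bp from the miR-34b/c hairpins.

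The strongest score under 10000 bp of the miR-34b/c genes was high in each list. That of the miR-449 genes stood at a different place in each. At miR-34b/c the strongest score was 1.15, 1.12 and 1.08 in leptonema/zygonema, pachynema and diplonema. These scores do not follow the same peak. In leptonema/zygonema the strongest peak lay downstream of the hairpins, at the start of 4833427G06Rik. In the other substages it lay over Mir34b. The peak over Mir34b scored 1.05 in leptonema/zygonema. Of the called microRNA genes, 74.5%, 72.8% and 83.4% had a lower strongest score in these substages. At miR-449 the strongest peak lay upstream of Cdc20b in each list. It scored 0.734, 1.09 and 1.19, above 30.6%, 68.5% and 94.3% of the called microRNA genes. The miR-449 genes therefore ranked below miR-34b/c in the first 2 substages and above it in diplonema, a description of 1 list per substage.

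**Figure D1:**
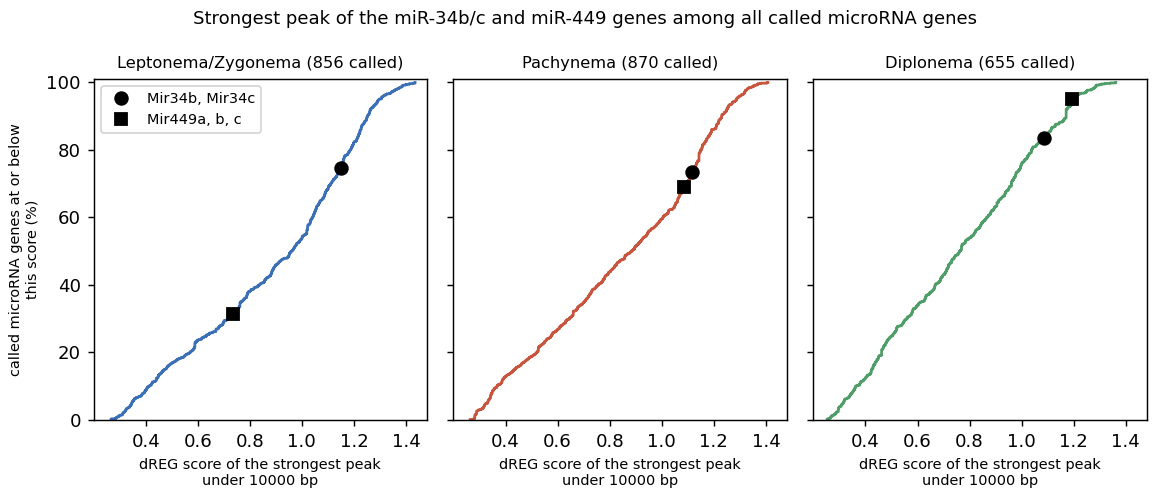
Cumulative share (y axis, percent) of the called microRNA genes against the dREG score of their strongest peak under 10000 bp (x axis), 1 panel per substage, for 856, 870 and 655 genes in leptonema/zygonema, pachynema and diplonema. The circle (Mir34b and Mir34c) stays in the upper part of each curve. It stands for the peak at 4833427G06Rik in leptonema/zygonema and for the peak over Mir34b in the other substages. The square (the 3 miR-449 genes) moves from 0.734 in leptonema/zygonema to 1.19 in diplonema.

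At the miR-34b/c locus, a strong peak covered the Mir34b hairpin and the sequence just upstream of it in all 3 substages. Mir34b (ENSMUSG00000065492.1, chr9:51103562-51103645, minus strand) and Mir34c (ENSMUSG00000065587.1, chr9:51103034-51103110, minus strand) lie 535 bp apart from 5′ end to 5′ end, Mir34b first. No GENCODE transcript on their strand spans them. Both lie in intron 1 of 1 transcript of Btg4, an oocyte and germ cell regulator of messenger RNA decay that is read from the opposite strand.

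The peak over Mir34b ran over chr9:51103551-51104290 in leptonema/zygonema, with a score of 1.05 (percentile 83.2). In pachynema it ran over chr9:51103551-51104280 and scored 1.12 (percentile 89.4), and in diplonema over chr9:51103441-51104310 with 1.08 (percentile 93.8). The 3 calls thus nearly coincided on the 10 bp grid of the lists, and only the diplonema call reached further toward Mir34c. Its centre lay 495 bp upstream of the Mir34b 5′ end in leptonema/zygonema, 465 bp in pachynema and 385 bp in diplonema. Counted from Mir34c, the same centres lay 1030, 1000 and 920 bp upstream. A weaker peak adjoined it on the upstream side in each substage, with scores of 0.432, 0.525 and 0.32.

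The hairpins themselves were also covered. A peak overlapped Mir34b in every list, against 6.36%, 7.13% and 4.77% of all microRNA genes in leptonema/zygonema, pachynema and diplonema. Mir34c was overlapped in pachynema and diplonema, and in leptonema/zygonema the nearest peak edge was 24 bp away. The calls over Mir34c were weak. In pachynema 2 small peaks touched it, with scores of 0.294 and 0.341, and in diplonema 1 peak over chr9:51103051-51103420 scored 0.399 (percentile 28.9).

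The other strong TRE of the locus was downstream of the hairpins, at the start of 4833427G06Rik. This protein-coding gene, named Hoatz in RefSeq and known as a gene of motile cilia and sperm flagella, is read in the same direction as the microRNAs, and its annotated TSS lies 1567 bp downstream of the Mir34b 5′ end. Its peak scored 1.15 in leptonema/zygonema (percentile 88.7), 1.1 in pachynema (percentile 88.2) and 0.895 in diplonema (percentile 82.7). In the first 2 substages that peak overlapped the TSS. In diplonema it ended 18 bp from the TSS, and a separate peak with a score of 0.596 began 3 bp from it. Both strong TREs were thus called in each list. In leptonema/zygonema the one at 4833427G06Rik had the higher score, and in pachynema and diplonema the one at Mir34b did.

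Btg4 was called at only some of its GENCODE starts. Its TSS pair at 51116001 and 51116005 on chromosome 9 had a peak 771 bp from the former in leptonema/zygonema, with a score of 1.06, and 781 bp away in pachynema, with 0.739. The nearest diplonema peak was 1381 bp away and scored 0.352. None of the 3 lists had a peak under 1000 bp from its TSS at 51105878, and the starts at 51060901 and 51060922 were at least 40489 bp from any peak. RefSeq models were looked at after the GENCODE result had been seen. A predicted Hoatz transcript runs over chr9:51081310-51105834 on the minus strand, across both microRNAs, and the nearest peaks to its start were 1234, 1214 and 1344 bp away in the 3 substages. RefSeq also has Btg4 starts closer to the microRNAs, on the opposite strand, and these were called in every list. The one at 51102147 lies under the downstream peaks, with scores of 1.15, 1.1 and 0.596, and so shares them with 4833427G06Rik. The one at 51103342, between the hairpins, was overlapped by the weak peaks of pachynema and diplonema (0.294 and 0.399) and lay 209 bp from the Mir34b peak in leptonema/zygonema. A peak without strand cannot be given to one of these genes.

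**Figure D2:**
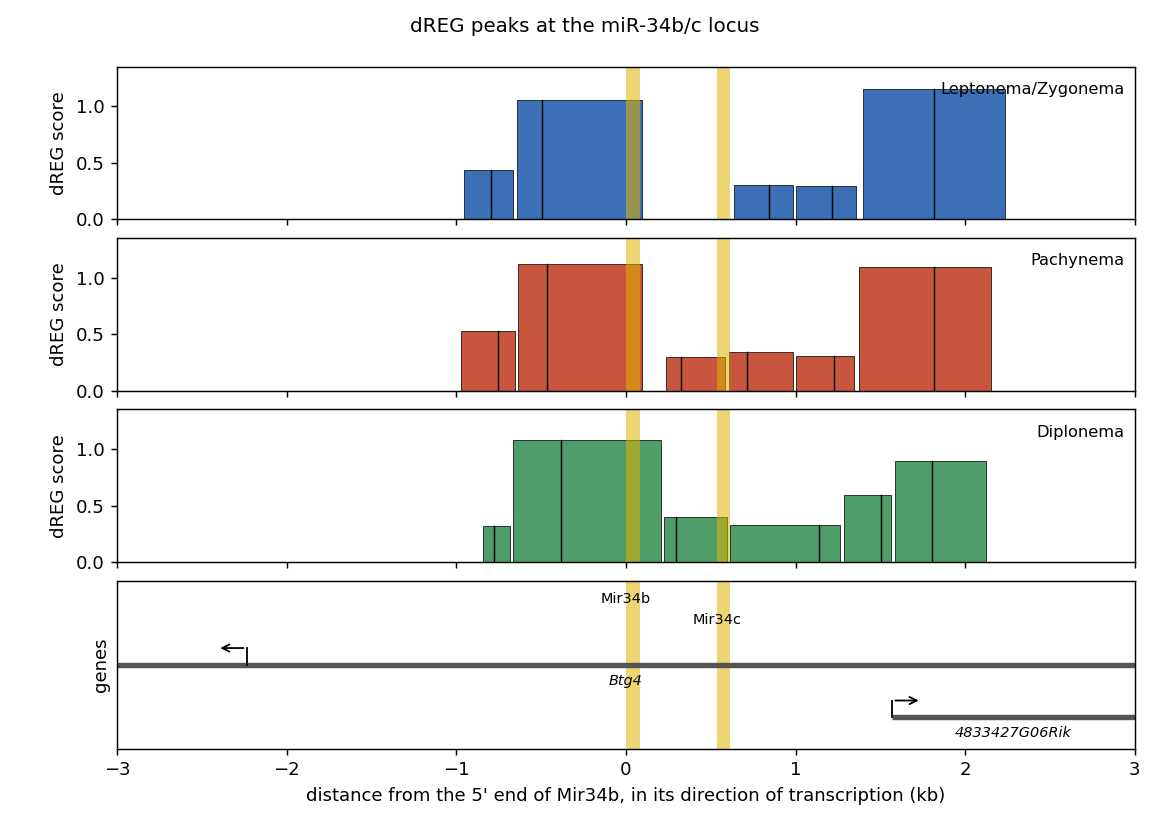
dREG peaks at the miR-34b/c locus, with distance from the Mir34b 5′ end in its direction of transcription (x axis, kb) and dREG score (y axis), 1 row per substage; boxes span the peaks, black lines mark centres, yellow bands the hairpins, and arrows in the lowest row the annotated starts. The tall peak over and upstream of Mir34b and the one at the start of 4833427G06Rik appear in all 3 rows, with scores of 0.895 or above.

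At the miR-449 locus the peaks nearest the hairpins differed between substages, while a TRE further upstream was called in all 3. Mir449c (ENSMUSG00000076146.1, chr13:113035983-113036091), Mir449b (ENSMUSG00000078027.1, chr13:113037419-113037498) and Mir449a (ENSMUSG00000065575.1, chr13:113037534-113037624) lie on the plus strand. All 3 are in intron 2 of each of the 5 GENCODE transcripts of Cdc20b that span them, on the same strand. Cdc20b, a relative of the cell cycle gene Cdc20, is known as the host gene of this cluster in vertebrates, and it has annotated starts at 113035111, 113035379 and 113035387 on chromosome 13. The first of these lies 872 bp upstream of the Mir449c 5′ end and 2423 bp upstream of that of Mir449a.

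No peak was called under 1000 bp from a Cdc20b TSS in leptonema/zygonema, where the nearest edge was 2631 bp from the first TSS. In pachynema there were peaks over chr13:113034951-113035310, with a score of 0.586 (percentile 51.6), and over chr13:113035331-113035770, with 0.551 (percentile 47.6). In diplonema a single peak over chr13:113034791-113035370 covered the first TSS with a score of 0.802 (percentile 76.1), and 2 further peaks lay upstream of it, with scores of 0.661 and 0.335. Cdc20b was therefore called in pachynema and diplonema but not in leptonema/zygonema, although the leptonema/zygonema list is the longest of the 3. Among 21938 protein-coding genes, the share called at a start was 60.2% in leptonema/zygonema, 60.5% for pachynema and 51.6% for diplonema, and 1.44% had the pattern of Cdc20b. The lists hold only called peaks, so a missing call gives no value for leptonema/zygonema and does not show that transcription was absent.

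Pachynema had 1 more peak just inside the gene. It ran over chr13:113035791-113036220, covered the whole Mir449c hairpin, and scored 0.592 (percentile 52.2), with its centre 3 bp upstream of the Mir449c 5′ end. Neither of the other lists had a call there. In diplonema the nearest edge to Mir449c was 613 bp away, and in leptonema/zygonema 3503 bp. The distances grow along the cluster: to Mir449a the nearest edge was 5054 bp in leptonema/zygonema, 1314 bp in pachynema and 2164 bp in diplonema.

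Within 10000 bp of the miR-449 genes, the strongest TRE lay upstream of Cdc20b, away from any annotated start. In leptonema/zygonema it ran over chr13:113031901-113032480 and scored 0.734 (percentile 63.4). In pachynema it ran over chr13:113031691-113032470 with 1.09 (percentile 87.6), and in diplonema over chr13:113031671-113032520 with 1.19 (percentile 97.9). Its centre was at the same position in leptonema/zygonema and pachynema, 2921 bp upstream of the first Cdc20b TSS, and 2851 bp upstream in diplonema. Counted from the top of each list, it ranked 25957, 8410 and 796 in leptonema/zygonema, pachynema and diplonema. The lists differ in length and each is 1 pooled call, so these ranks are a description. Weaker peaks flanked it on the far side in leptonema/zygonema, with scores of 0.337 and 0.499, and in pachynema, with 0.401. Whether it starts a transcript that reaches the microRNAs cannot be told from peaks without strand.

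Downstream of the cluster, Gpx8, a glutathione peroxidase-like gene of the endoplasmic reticulum read from the opposite strand inside the Cdc20b span, had the remaining peaks. Its TSS was covered in leptonema/zygonema by a peak scoring 0.42, and in pachynema the nearest of 2 peaks, scoring 0.535, lay 133 bp away. Diplonema had no peak there, and the nearest was 11023 bp away. Gm10735, an unclassified transcript that also lies within Cdc20b, had no peak under 1000 bp from its start in any list. The calls at Gpx8 and at Cdc20b therefore had different patterns over the substages. The pattern of Gpx8, called in leptonema/zygonema and pachynema only, was that of 7.51% of protein-coding genes. Its leptonema/zygonema call is lost with a score of at least 0.5, p at most 0.01 or lists of equal length. The pachynema call passes all of these.

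Some genes around the locus were looked up although their starts lie outside the distance limit, and were chosen by position after the peaks had been seen. Ccno, a cyclin-like gene needed for making many basal bodies, was called at its TSS in all 3 substages, with scores of 1.18, 1.25 and 0.773. Mcidas, a coactivator of multiciliated cell genes that lies between Ccno and Cdc20b, was called only in pachynema, with 0.609, as were 2.09% of protein-coding genes. The antisense transcript 4930563N14Rik, which starts inside the Cdc20b span, had peaks at its TSS in each list, with scores of 1.33, 1.03 and 1.06.

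**Figure D3:**
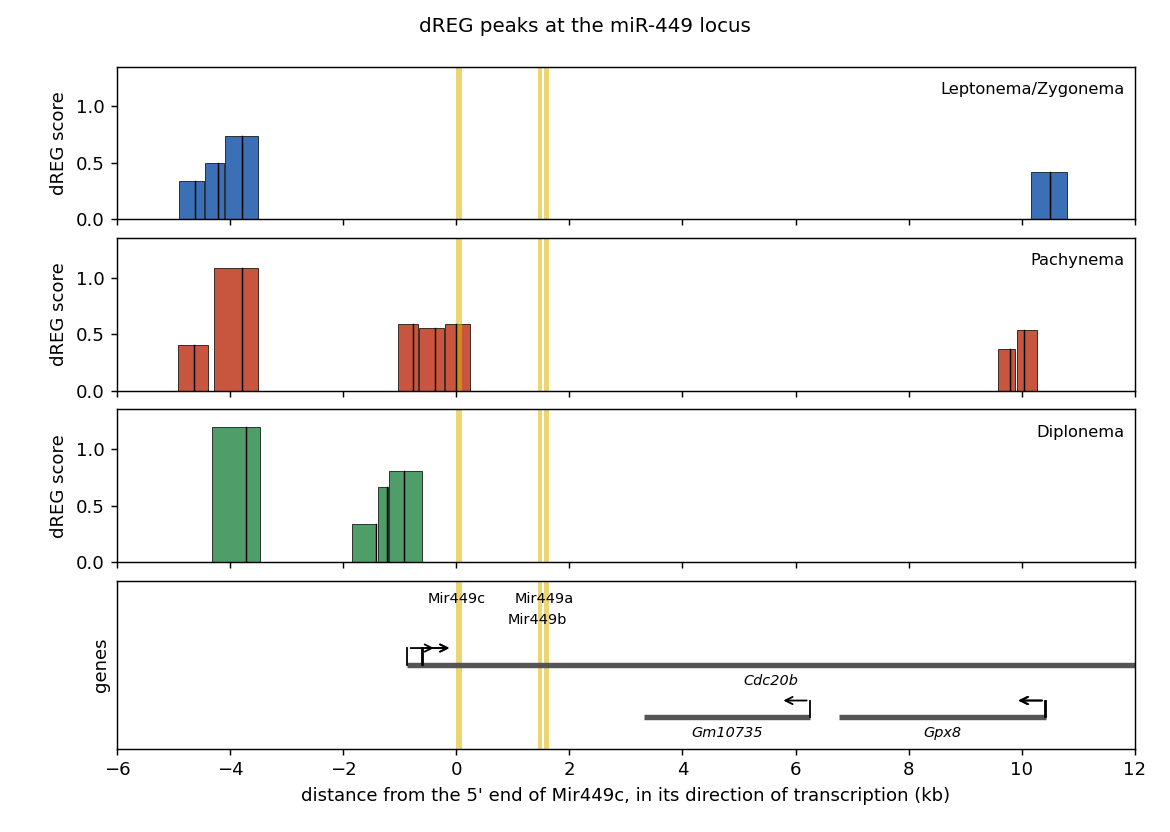
dREG peaks at the miR-449 locus, with distance from the Mir449c 5′ end in its direction of transcription (x axis, kb) and dREG score (y axis), 1 row per substage, drawn as on the miR-34b/c map. The row of leptonema/zygonema is empty around the Cdc20b starts, where pachynema has 3 adjoining boxes and diplonema 3, while the upstream TRE stands in all rows with scores of 0.734, 1.09 and 1.19.

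The centres of 2 peaks of this locus are shown, the upstream TRE because it was called in every list and the Mir449c peak because it was called in pachynema alone, with a shorter stretch at the Cdc20b start. All are from GRCm38, the assembly of mm10, plus strand. The upstream TRE is given over chr13:113032090-113032290, 100 bases on each side of its pachynema centre, and capitals mark the E-box CACGTG. The Mir449c peak is given over chr13:113035880-113036080, and capitals mark the MYB core CAGTTG or its reverse complement. The stretch at the Cdc20b start covers chr13:113035113-113035142, and capitals mark the cAMP response element TGACGTCA.
upstream TRE: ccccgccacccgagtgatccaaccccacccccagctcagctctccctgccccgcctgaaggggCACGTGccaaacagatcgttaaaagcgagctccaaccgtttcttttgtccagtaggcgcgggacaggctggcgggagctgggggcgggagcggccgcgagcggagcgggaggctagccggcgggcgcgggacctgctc
Mir449c peak: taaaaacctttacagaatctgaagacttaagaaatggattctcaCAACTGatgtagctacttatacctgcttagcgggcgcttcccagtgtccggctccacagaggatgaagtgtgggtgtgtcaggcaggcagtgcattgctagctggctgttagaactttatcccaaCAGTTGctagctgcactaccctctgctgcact
Cdc20b start: caccccagactTGACGTCAtcgaggcgctg

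Motifs were searched on both strands within 100 bp of each centre. Only exact matches were counted, so a variant of a motif would be missed. For MYB proteins CAGTTG was searched, and also the longer GGCAGTT. RFX factors were represented by GTTGCCA. For CREB and CREM the element was TGACGTCA, and for E2F it was TTCCCGCC. The E-box was CACGTG. Forkhead proteins were represented by GTAAACA. The last was the p53 family pair of CATG blocks with 6 bases between them. The peak over Mir34b held none of the 8 in any substage. The upstream TRE held CACGTG in leptonema/zygonema and pachynema, at chr13:113032153-113032158, 32 bp from the centre, where 4.33% and 4.89% of all peaks of those lists held it. Around the shifted centre of diplonema the window held CAGTTG in its place, which 11.4% of all diplonema peaks held. CACGTG and TGACGTCA read the same on both strands, and none of the matches overlapped another.

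At the Cdc20b start, TGACGTCA lay at chr13:113035124-113035131, beginning 13 bp downstream of the first GENCODE TSS, within 100 bp of the centre in both pachynema and diplonema. Of all peaks, 1.3% in pachynema and 1.67% in diplonema held it. The Mir449c peak held CAGTTG at 2 places, chr13:113035924-113035929 and chr13:113036049-113036054, and 11.1% of pachynema peaks held it at least once. The second of these lies on the first bases of the mature miR-449c-3p printed above. The 4833427G06Rik peak held none of the 8 within 100 bp of its centre, and its RefSeq promoter, 250 bases before to 50 after the start, held GGCAGTT, as did 4.12% of 32851 such promoters. That of Btg4 held GTTGCCA, as did 4.38%. The RefSeq promoter of Cdc20b, chr13:113035129-113035428, begins inside the TGACGTCA match and held none of the 8. A match is a description of the sequence and not of binding.

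Base composition varied among the TREs within each of the 2 loci. The window of 100 bp on each side of the upstream TRE's centre was 70.1% G and C in leptonema/zygonema and pachynema and 65.7% in diplonema, with 20, 20 and 21 CpG dinucleotides. The Cdc20b start peak had 63.2% in pachynema and 75.6% in diplonema, with 16 and 27 CpG. The median peak of the lists had 50.7%, 51.2% and 53.2%, with 4, 4 and 6 CpG, so these windows were richer than most. The Mir449c peak, at 48.3% with 3 CpG, was not. At Mir34b the value moved with the position of the centre, from 54.7% and 5 CpG in leptonema/zygonema to 59.7% and 8 in pachynema and 70.1% and 14 in diplonema. The 4833427G06Rik peak had 56.7%, 56.7% and 57.7% in the 3 substages, with 10 CpG in each.

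Mir34a was the one gene without a call. It lies on the plus strand at chr4:150068454-150068555 (ENSMUSG00000065493.1), outside every protein-coding gene. Its last bases overlap the exon of Gm37795, an unclassified transcript of the same strand whose start lies inside the hairpin and which had no peak under 1000 bp from its start. The nearest peak edge in any direction was 18406 bp away in leptonema/zygonema, 14606 bp in pachynema and 15046 bp in diplonema. Of all microRNA genes, 55.1% likewise had no peak under 10000 bp in any list.

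The nearest peak upstream of Mir34a lay next to the start of Gm13067, a long intergenic non-coding RNA read in the same direction whose TSS is 19441 bp upstream. Its centre was 19054 bp upstream of the Mir34a 5′ end in leptonema/zygonema, with a score of 0.667 (percentile 57.9). In pachynema it was 19084 bp upstream with 0.879 (percentile 75.8), and in diplonema 19034 bp upstream with 0.687 (percentile 66.4). All 3 lists thus agree within 50 bp on this position. A further peak beyond it scored 0.595, 0.553 and 0.606, and pachynema and diplonema had weaker peaks over the TSS itself, with 0.413 and 0.395. Neither GENCODE nor RefSeq has a Gm13067 transcript that reaches Mir34a, so no annotation joins this TRE to the microRNA.

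Downstream of Mir34a, the calls differed between the lists. Gpr157, a receptor gene read in the same direction, was called at its TSS with a score of 0.703 in leptonema/zygonema and 0.33 in pachynema, and not at all in diplonema. Weak peaks between Mir34a and Gpr157 were called in pachynema (scores of 0.271 and 0.467) and diplonema (0.298 and 0.323).

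**Figure D4:**
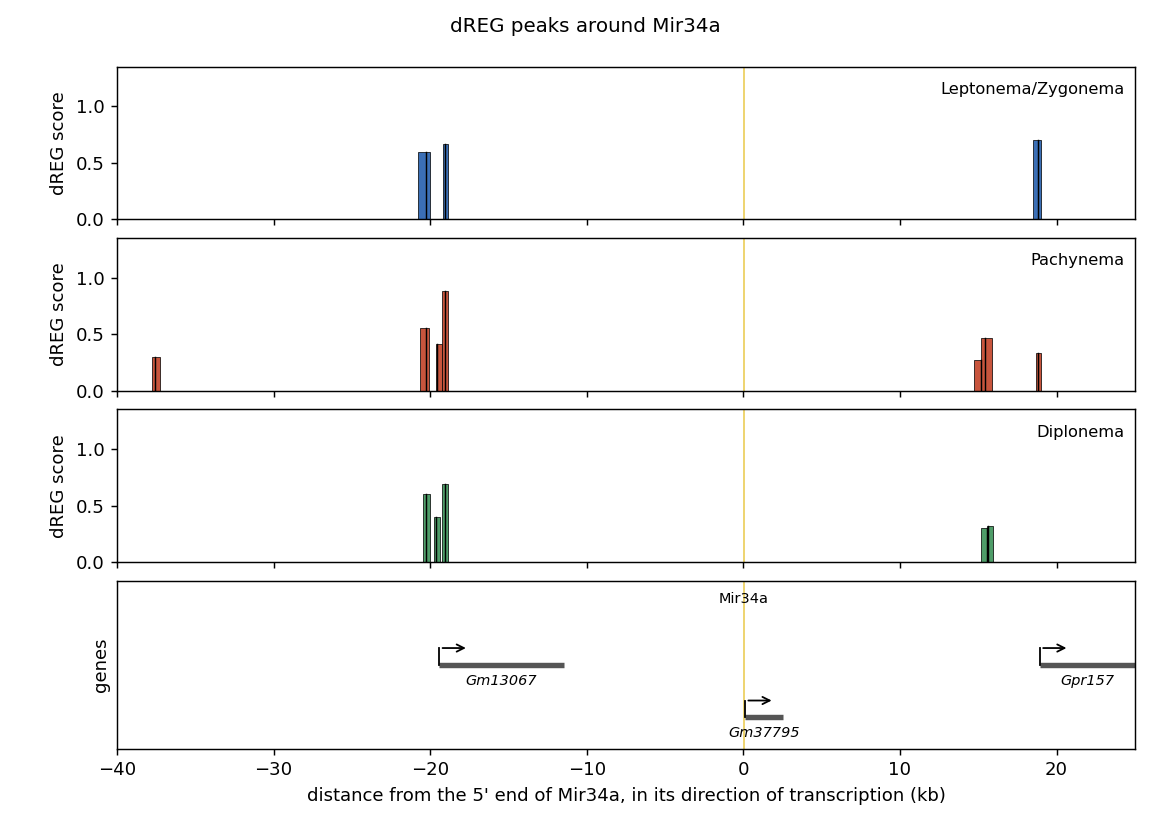
dREG peaks around Mir34a, with distance from its 5′ end in its direction of transcription (x axis, kb) and dREG score (y axis), 1 row per substage, drawn as on the miR-34b/c map. The rows are empty around the hairpin, and the upstream group at Gm13067 appears in each, with its highest peak at 0.667, 0.879 and 0.687.

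Candidate starts of the primary transcripts were set by 2 rules. Under the first, a peak under 1000 bp from the TSS of an annotated transcript that spans the microRNA on its own strand, the 3 miR-449 genes had a candidate, the Cdc20b start, in pachynema and diplonema and none in leptonema/zygonema. Of the 1179 microRNA genes with such a spanning gene, 64%, 76.3% and 67.3% had a peak at its start in leptonema/zygonema, pachynema and diplonema, and 12.9% had the pattern of pachynema and diplonema only. MicroRNA genes with the same spanning gene were each counted, so these are not shares of spanning genes. Of all protein-coding genes, 1.44% had that pattern. Mir34a, Mir34b and Mir34c have no spanning transcript on their strand in GENCODE, so the first rule gave them no candidate. Under the second rule, the nearest peak upstream under 10000 bp, Mir34b took the strong peak over its own hairpin in all 3 substages. For Mir34c the nearest were the weak peaks over its own hairpin in pachynema and diplonema, and the strongest upstream was in each list the peak at Mir34b.

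For the miR-449 genes the nearest upstream candidate was a different TRE in each list. In leptonema/zygonema it was the upstream TRE, 3793 bp from the Mir449c 5′ end. In pachynema it was the peak over Mir449c and in diplonema that at the Cdc20b start, 923 bp from it. The strongest upstream peak under 10000 bp was the upstream TRE in all 3 lists, so the nearest and the strongest candidate were the same only in leptonema/zygonema. For Mir34a the nearest upstream peaks were in each list those at Gm13067, outside the limit.

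Shared calls were counted with peaks that overlap by at least 1 bp. Of the 13 pachynema peaks at the genes, 6 overlapped a peak of both other lists. The same share of all pachynema peaks was not counted, so nothing is read from the 6. Merged over the lists, the peaks formed 3 TREs at miR-34b/c and 7 at miR-449. At miR-34b/c 2 of the 3 were present in all substages and 1, over Mir34c, in pachynema and diplonema. At miR-449 only 1 of 7, the upstream TRE, was in all 3, while 1 was in pachynema and diplonema, 1 in leptonema/zygonema and pachynema, 2 in pachynema alone and 2 in diplonema alone. Of the 65172 merged TREs of the genome, 31.5% were in all 3 lists, 4.08% in pachynema and diplonema, 21.9% in leptonema/zygonema and pachynema, 14.7% in pachynema alone and 3.02% in diplonema alone.

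Other microRNA genes were ranked by how near their strongest peaks came to the same percentiles over the 3 substages, among 583 with calls in all of them. Mir7655, Mirlet7d and Gm25953 were nearest to miR-34b/c, with summed percentile differences of 3.91, 4.11 and 4.36 points. For miR-449 they were Mir7210, at 6.44 points, and Mir7241 and Mir7242, both at 13.7. Of the latter, Mir7210 scored 0.797, 1.09 and 1.29 in leptonema/zygonema, pachynema and diplonema. The likeness is over 3 pooled lists, and nothing is read from it.

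Of 50 other microRNA genes listed as studied in testis or germ cells, 48 were in the annotation. Of these, 21, 20 and 20 were called in leptonema/zygonema, pachynema and diplonema, or 43.8%, 41.7% and 41.7%, beside 38.9%, 39.5% and 29.7% of all microRNA genes. These calls are not independent, since clustered genes had the same strongest score: Mir17, Mir18, Mir19a, Mir20a, Mir19b-1 and Mir92-1 had 0.905 in diplonema, and Mir106b, Mir93 and Mir25 had 0.429. The highest pachynema scores among them were those of Mir302a, at 1.21, and Mir184, at 1.18, followed by Mirlet7a-1, Mirlet7f-1 and Mirlet7d, tied at 1.13. Mir10a and Mir10b were called in pachynema and diplonema only, and Mir191, Mir32 and Mir425 in leptonema/zygonema only.

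Of 17 listed genes that make and load microRNAs, all had a TSS peak in leptonema/zygonema and pachynema, and 16 in diplonema, beside 60.2%, 60.5% and 51.6% of all protein-coding genes. Ago3, an Argonaute protein that binds microRNAs, scored 1.31, 1.44 and 1.14 in leptonema/zygonema, pachynema and diplonema, and Xpo5, which exports the hairpins, 1.26, 1.28 and 1.14. Dgcr8, the partner of Drosha in cutting primary transcripts, scored 1.26, 1.25 and 0.975. Ago1, another Argonaute, was the gene without a diplonema call and scored 0.562 and 0.68 in the other lists. The median percentile of the best TSS peak was 87.4, 86.8 and 86.5 over the called genes of the list, beside 82.9, 84.6 and 78.6 over all called protein-coding genes.

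Genes listed as possible regulators of miR-34 or miR-449 were called in part. The list includes Ccno, described above as a neighbour of miR-449, and a role upstream of the microRNAs was not tested for any of them. Of 16 listed, 13, 14 and 11 were called in leptonema/zygonema, pachynema and diplonema, beside 60.2%, 60.5% and 51.6% of all protein-coding genes. Rfx3, a ciliogenesis factor, scored 1.27, 1.23 and 1.02, and E2f1, a cell cycle factor, 1.16, 1.23 and 0.366. E2f4, which works with Mcidas in multiciliated cells, and Gmnc, which acts above Mcidas, were called in leptonema/zygonema and pachynema. In leptonema/zygonema they scored 0.697 and 0.905. Their pachynema calls were weak, with 0.302 (percentile 4.77) and 0.396 (percentile 24.6). Myb and Trp73, named here because they alone had no call in any list, are the MYB family founder and a p53 relative needed in multiciliated cells. The median percentiles over the called genes were 87.6, 78.5 and 70.

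Of 22 genes known as targets of the shared seed, 18, 18 and 16 were called in leptonema/zygonema, pachynema and diplonema, against the same shares of all protein-coding genes, 60.2%, 60.5% and 51.6%. Sirt1, a deacetylase, scored 1.16, 1.34 and 1.26, Notch2, a receptor, 1.34, 1.32 and 1.16, and Hdac1, a histone deacetylase, 1.1, 1.26 and 0.92. Those called in some lists only included Bcl2, an inhibitor of cell death, in leptonema/zygonema and pachynema (0.828 and 0.454), and Ccnd1, a G1 cyclin, in leptonema/zygonema (0.356). Axl, a receptor tyrosine kinase, was called in leptonema/zygonema and diplonema (0.414 and 0.644), and Dll1, a Notch ligand, and Pdgfra, a growth factor receptor, in pachynema (0.333 and 0.265). Csf1r and Nanos2, singled out for having no call, are a macrophage receptor and a regulator of spermatogonia. A TSS call says nothing of regulation by the microRNAs, which act on messenger RNA. The median percentiles were 75.8, 80 and 63.9.

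The labelled cell type was checked on markers. Of 18 spermatocyte markers, 17, 17 and 18 were called in leptonema/zygonema, pachynema and diplonema, where 60.2%, 60.5% and 51.6% of all protein-coding genes were. Hormad1 and Sycp1, parts of the meiotic chromosome axis and the synaptonemal complex, scored 1.29 and 1.25 in leptonema/zygonema, 1.32 and 1.24 in pachynema and 1.33 and 1.25 in diplonema. Meiob, a factor of meiotic recombination, scored 1.32, 1.28 and 1.38. Not all stayed high in their lists. Rec8, a meiotic cohesin, scored 1.37, 1.07 and 0.292 (percentiles 98.98, 87.06 and 4.741). Dmc1, a recombinase, scored 1.11, 0.768 and 0.507 (percentiles 86.24, 68.12 and 46.7). Both were named after their values were seen. Of 14 markers of Sertoli, Leydig and myoid cells, 3, 5 and 4 were called in leptonema/zygonema, pachynema and diplonema. Gata4, Sox9 and Clu were called in all. Wt1 was called in pachynema and diplonema (0.408 and 0.311), and Cyp11a1 in pachynema (0.414). The median percentile over the called genes of this list was 58.3, 57.9 and 48.4. Amh, Cyp17a1, Star, Insl3, Hsd3b1, Acta2, Myh11, Pdgfrb and Rhox5 had no call in any list.

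Of 10 spermatogonia markers, 7, 8 and 5 were called in the 3 substages (70%, 80% and 50%), and of 10 spermatid markers, 8, 7 and 7 (80%, 70% and 70%). The spermatogonia markers did not follow one course. Kit and Dmrt1 scored 0.343 and 0.332 in diplonema (percentiles 16.76 and 14.07), and 1.04 and 1.07 in leptonema/zygonema (percentiles 82.29 and 84.22). Id4 scored 1.03, 1.16 and 1.31 in the 3 substages (percentiles 81.65, 91.9 and 99.73). Among the spermatid genes, Acrv1 and Spaca1, of the acrosome, and Odf1, of the flagellum, were called in all lists, with pachynema scores of 1.3, 1.25 and 1.2. Tssk2, a spermatid kinase, was called in leptonema/zygonema only, with 0.358, and Tnp2 and Tssk1, named for their missing calls, in no list. Of 14 genes of multiciliated epithelium, the other tissue known for this family, 10, 11 and 9 were called (71.4%, 78.6% and 64.3%). These shares, too, stand beside 60.2%, 60.5% and 51.6% of all protein-coding genes, and nothing is read from the difference. Many of these genes also work in the sperm flagellum, among them Hydin, with scores of 1.4, 1.34 and 1.33. Epcam and Krt8, epithelial genes, were called in leptonema/zygonema and pachynema and in diplonema alone, and Krt18 and Cdhr3, picked out for this after their values were seen, in none. The part of other cells in the calls at the microRNA loci was not tested.

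**Figure D5:**
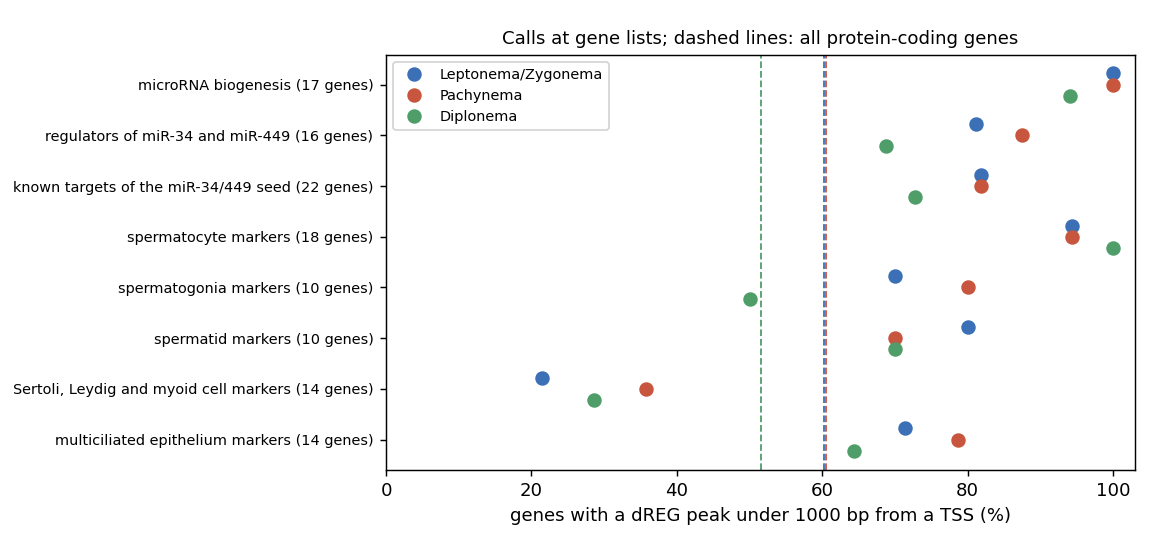
Share of the genes of each list with a dREG peak under 1000 bp from a TSS (x axis, percent), 1 point per substage, with dashed lines at the share of all protein-coding genes (60.2%, 60.5% and 51.6% in leptonema/zygonema, pachynema and diplonema). The microRNA biogenesis and spermatocyte lists lie at 94.1% or above, and the list of Sertoli, Leydig and myoid cells lies left of the lines.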

How the data were processed

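WT spermatocytes of 3 prophase I substages were assayed by leChRO-seq, with 4 libraries each. The authors used PRINSEQ lite to drop PCR duplicates that share a molecular identifier, cut adapters with cutadapt, mapped to mm10 with an added ribosomal RNA unit by BWA, merged the libraries of a substage and called peaks with dREG at default settings; tools are also named in the submitters' processing notes, and versions are not given in the sources used here. The methods describe paired-end and the labels single-end sequencing. The deposited score of each peak has no fixed range, and the deposited p-value is under 0.05 for every peak, with no statement on adjustment.

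The members and gene lists were chosen with earlier results of these data known. Members were the genes of that name in GENCODE M21; distances ran from the nearest peak edge. A microRNA gene was called with a peak under 10000 bp and any other gene with a peak under 1000 bp from a TSS. Overlaps needed 1 bp, and peaks that overlapped or touched were merged. Motifs were counted within 100 bp of the centre. Under the naming rule the text gives the 6 genes and genes that span them or start under 10000 bp away. From each list it may name the 3 with the highest pachynema percentile and up to 8 called in some substages. Some genes were named outside this rule, among them Gm13067 and Gpr157 near Mir34a, the Mir17 and Mir106b clusters, and listed genes with no call. Sequences were read from RefSeq GRCm38.p6. The distance, motif and merging steps gave 0 wrong answers on simulated data. Alternatives were other distances, a score of at least 0.5, p at most 0.01, lists of equal length, peak centres, other motif windows and, added after the data were seen, RefSeq transcripts. Python 3.11.15 with numpy 2.4.6, pandas 2.3.3 and scipy 1.17.1 was used.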

Additional observations from a re-analysis of the deposited data

How the results depend on the processing

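No paired analysis was possible because the libraries of a substage were merged before calling, so no replicate could be left out and the results come from no test. Of 99 values recomputed under alternatives, 28 moved, a count by more than 1.5 times or a share beyond its 95% exact binomial interval, and 71 did not, small changes included. With other distances, 4 genes in leptonema/zygonema were called at 5000 bp and all 6 in each list at 25000 bp. The Cdc20b start stayed called in pachynema and diplonema. Its missing call in leptonema/zygonema could not change under the stricter filters, which only remove peaks, and RefSeq starts gave none either. For the upstream candidates only the number of genes with one was compared, and it was 5 throughout. The share of all microRNA genes with a peak upstream was not counted. Which peak was nearest to Mir34c did change: the weak calls over it (0.294 in pachynema, 0.399 in diplonema) are under 0.5, the former falls outside lists of equal length and the latter has p above 0.01, which leaves the Mir34b peak. What moved was mostly the background. The share of all microRNA genes called in leptonema/zygonema, pachynema and diplonema was 26.2%, 26.6% and 19.5% at 5000 bp, 61.4%, 61.8% and 49.7% at 25000 bp, and 32.4%, 32.1% and 22.3% with a score of at least 0.5. It was 36.5% and 36.2% in leptonema/zygonema and pachynema with p at most 0.01, and 31.7% in both with lists of equal length. The share of protein-coding genes was 59%, 59.5% and 50.7% at 500 bp, 54.2%, 53.8% and 42.5% with a score of at least 0.5, 58.4%, 58.6% and 49.3% with p at most 0.01, and 52.7% and 53.2% in leptonema/zygonema and pachynema at equal length. Each of these changes the number of peaks or the distance by its construction. At the genes, pachynema peaks found in both other lists numbered 6 of 13, and 3 of 8 with a score of at least 0.5. They numbered 8 with peaks under 500 bp apart counted as shared. No such share of all pachynema peaks was counted at any setting. Of the 8 motifs, 1, 2 and 2 were found in the peaks at Mir34b, upstream of Cdc20b and at its start in leptonema/zygonema, pachynema and diplonema. Within 250 bp the numbers were 2, 3 and 3, and within 50 bp 1, 1 and 0.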

Other observations

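Many peaks have a deposited p-value of exactly 0, and these are not only the strong ones. They made up 29.4%, 27.8% and 24.1% of the leptonema/zygonema, pachynema and diplonema lists, and of them 32.8%, 34.2% and 41.7% had a score under the median of their list. At the miR-34b/c locus the pachynema peak of chr9:51102301-51102640, with a score of 0.31, was listed at 0, and a stronger one of the same list at chr9:51104301-51104620, with 0.525, was not. The p-value was therefore used here only in an alternative filter.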
